A study of Mus musculus with 73 samples.

Results

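Collagens are the main structural proteins of the connective tissue beneath the gut epithelium, and 10 of their genes were described here in mouse jejunum. Each collagen molecule is a trimer of chains that wind into a triple helix. Chains of types I, III and V assemble into the banded fibrils of the lamina propria, type IV forms the sheet-like network of basement membranes under epithelium and around vessels, and type VI forms beaded filaments between cells and fibrils. *Col1a1*, *Col1a2*, *Col3a1*, *Col5a1* and *Col5a2* encode the fibrillar chains, *Col4a1* and *Col4a2* the basement membrane chains, and *Col6a1*, *Col6a2* and *Col6a3* the beaded filament chains. The genes were chosen by name and were read in single mesenchymal cells and in stroma cut from 4 zones of the crypt-villus axis.

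Single cells were sorted into plates from C57BL/6 mice aged 3 months, and unique molecular identifiers (UMIs, which count captured transcript ends) were deposited for 12698 wells and 21058 genes. A well was kept with 400 to 8000 UMIs and at least 250 genes, which left 2347 cells, and a cell was called mesenchymal when at least 2 of *Pdgfra*, *Dcn* and *Lum* had a UMI, which left 199 cells. Stroma of C57BL/6 mice of the same age was cut by laser capture microdissection (LCM), with crypt from 3 mice and villus bottom, center and tip from 5 mice, in 29 sections of 1 or 2 per mouse and zone. Epithelium of *Lgr5*(GFP-ires-DTR/+) mice aged 4 months was collected 48 h after diphtheria toxin (DT) or saline, with 4 mice each; in this line the toxin receptor sits at the *Lgr5* locus, so the controls carry it too. The sort took cells by surface markers and several gates held pairs of cells, and each LCM section pooled fragments of several villi.

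The markers of the rule chose the cells and so do not check the label. Among the 199 cells, *Dcn*, a small fibril-binding proteoglycan, was found in 191, *Lum*, a related proteoglycan, in 149 and *Pdgfra*, the receptor used for the sort, in 109. The check used markers of other cell types. A pair of the immune markers *Ptprc*, *Cd52* and *Cd3e* was found in 0 cells, a pair of the endothelial markers *Pecam1*, *Cdh5* and *Kdr* in 0 cells, and a pair of the epithelial markers *Epcam*, *Krt8* and *Vil1* in 3 cells. The cells came mostly from a pair of animals, lettered A (58 cells) and G (136 cells), and 121 cells of animal G sat on 1 plate. Of the 199 cells, 51 came from gates for cell pairs, all of them from animal A. Such gates were also sorted from animal H, but its 1 mesenchymal cell came from an EPCAM singlet gate. The 199 cells carried 173 well barcodes, 25 of them on more than 1 plate, because every plate used the same set. Mesenchymal cells had a median of 1243 UMIs and epithelial cells 1836.

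Several of the genes lie close together in the genome (GENCODE coordinates of GRCm38). *Col4a1* (chromosome 8, 11198423 to 11312826, minus strand) and *Col4a2* (chromosome 8, 11312805 to 11449287, plus strand) are annotated head to head, with 22 bases in both. *Col3a1* (chromosome 1, 45311538 to 45349706, plus strand) and *Col5a2* (chromosome 1, 45374321 to 45503282, minus strand) are 24614 bases apart. *Col6a2* (chromosome 10, 76595762 to 76623630) and *Col6a1* (chromosome 10, 76708792 to 76726168), both on the minus strand, are 85161 bases apart. The others stand alone, with *Col1a1* on chromosome 11 (94936224 to 94953042), *Col1a2* on chromosome 6 (4504814 to 4541544), *Col5a1* on chromosome 2 (27886425 to 28039514) and *Col6a3* on chromosome 1 (90765923 to 90843971).

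The 250 bases before the start were read from RefSeq (GRCm38.p6) for the 8 genes that matched, and 3 short words were searched on both strands, TATAAA (the TATA box core), CCAAT and GGGCGG (the core of GC boxes). TATAAA was present before 1 of the 8 genes, *Col3a1*, against 12.4% of 32851 windows of all genes. CCAAT was present before 3 (*Col1a2*, *Col4a1* and *Col4a2*), against 33.8% of windows, and GGGCGG before 4 (*Col1a2*, *Col4a2*, *Col5a1* and *Col6a2*), against 32.7%. The *Col3a1* window held 35.2% G and C, against a median of 52.4% over all windows and 62.0% in the *Col1a2* window. Sequences are shown, 5′ to 3′ on the plus strand with the searched words in capitals, for the shared start of the type IV pair, because it is the only stretch that belongs to both genes, and for *Col3a1* and *Col1a2*, because these are the fibrillar genes with the highest UMI levels that had a window. The *Col1a2* line is the part of its window that no annotated exon covers, so its CCAAT, 109 bases before the RefSeq start, lies outside it. The RefSeq start of *Col1a2*, 4505618, differs from its GENCODE start, 4504814. The *Col1a2* line is therefore upstream of the RefSeq start only and lies inside the gene as GENCODE gives it. The RefSeq start of *Col6a1* (76726044) and 1 start of *Col6a2* (76623404) also lie inside their GENCODE genes.
Col4a1 and Col4a2 shared start, chr8:11312805-11312826: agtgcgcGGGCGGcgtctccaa
Col3a1 upstream, chr1:45311288-45311537, plus strand: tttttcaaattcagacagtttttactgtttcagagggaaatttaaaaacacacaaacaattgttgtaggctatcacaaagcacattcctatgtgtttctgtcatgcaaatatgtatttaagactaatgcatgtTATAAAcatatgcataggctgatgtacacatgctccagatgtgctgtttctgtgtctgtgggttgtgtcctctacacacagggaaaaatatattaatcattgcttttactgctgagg
Col1a2 upstream, chr6:4505370-4505492, plus strand: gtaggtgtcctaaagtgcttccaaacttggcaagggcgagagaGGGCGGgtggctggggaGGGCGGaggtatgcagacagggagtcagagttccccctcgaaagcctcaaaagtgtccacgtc
The TATAAA of *Col3a1* began 117 bases before its start. A match is a description of these letters and not a test of any factor.

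In the mesenchymal cells the collagen genes were abundant and led by type I and type III. The 10 genes held 6926 UMIs, 2.51% of all UMIs of these cells, with 2.24% in animal A and 2.63% in animal G. *Col1a1*, *Col1a2* and *Col3a1* together made up 73.5% of the collagen UMIs. A cell had UMIs of a median of 6 of the 10 genes, 1 cell had none and 6 cells had all. Over single cells the share of UMIs on the 10 genes had a median of 2.05% and reached 9.01%. Cells with more genes detected were also the deeper ones, from a median of 531 UMIs in the cell with none to 2850 in those with all 10. A UMI counts 1 transcript end, so levels of different genes can be set side by side on the scale of UMIs per 100000 UMIs, on which the order of the genes follows.

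*Col3a1*, the single chain of type III collagen, had the highest level, 751 UMIs per 100000 (exact Poisson interval 719 to 784), and was found in 91.0% of cells. Its level was 639 in animal A and 797 in animal G. *Col1a2*, the second chain of type I collagen, followed at 564 (interval 537 to 593, 89.4% of cells) and *Col1a1*, the chain present in 2 copies in each type I molecule, at 527 (interval 500 to 555, 84.4% of cells). Both type I chains were lower in animal A, with 439 for *Col1a2* and 364 for *Col1a1*, than in animal G, with 614 and 588. The intervals of *Col1a1* and *Col1a2* overlap, so their order was not resolved by the counts. All intervals here cover counting error only.

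The beaded filament genes came next. *Col6a2* stood at 187 UMIs per 100000 (interval 172 to 204, 74.4% of cells) and *Col6a1* at 176 (interval 160 to 192, 71.9% of cells), and their intervals overlap. *Col6a3*, whose chain is the longest of type VI, was at 99.2 (interval 87.8 to 112, 54.8% of cells). The animals were in the opposite order to that of type I for both short chains, with 243 for *Col6a1* and 278 for *Col6a2* in animal A against 157 and 162 in animal G. *Col6a3* was 82.1 in animal A and 103 in animal G, with overlapping intervals.

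The remaining genes were an order of size below type I. *Col5a2* and *Col5a1*, whose products join type I fibrils, were at 64.4 (interval 55.3 to 74.6, 43.2% of cells) and 53.9 (interval 45.6 to 63.3, 37.7% of cells). *Col4a1* and *Col4a2*, the widespread basement membrane chains, were at 49.6 (interval 41.6 to 58.6, 36.2% of cells) and 34.0 (interval 27.5 to 41.6, 24.6% of cells). *Col5a2*, *Col5a1* and *Col4a1* overlap with their neighbours in this order. *Col4a2* was the lowest of the 10 in both animals, at 29.9 in animal A and 35.4 in animal G. With each cell thinned to 400 UMIs the share of cells with a UMI fell to 79.3% for *Col3a1*, 66.2% for *Col1a1*, 44.4% for *Col6a1* and 10.8% for *Col4a2*.

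Other kept cells of all animals gave the background. They were not limited to the 12 plates that held mesenchymal cells, so the background is not matched by plate. Epithelial, immune and endothelial cells needed at least 2 of their own markers, fewer than 2 of each other class and none of *Pdgfra*, *Dcn* and *Lum*. Wells with a UMI of these 3 mesenchymal markers were thus left out, which can lower the collagen counts of the background. The 1445 epithelial cells, called by at least 2 of *Epcam*, *Krt8* and *Vil1*, held 45 UMIs of the 10 genes in 41 cells. The highest share among them was that of *Col3a1*, 1.04% of epithelial cells with a UMI against 91.0% of mesenchymal cells, at median depths of 1836 and 1243 UMIs. *Col5a2* had 0 UMIs in the epithelial cells, so up to 0.208% of them could hold one by the limit of 3 counts. The 54 immune cells had 0 UMIs of all 10 genes, which allows up to 5.56% of cells with a UMI of each gene at a median depth of 780 UMIs, and sets no limit on the cells that express it. The 4 endothelial cells had 8 UMIs of *Col4a1* in 3 cells and 6 UMIs of *Col4a2* in 2 cells and 0 UMIs of the other 8 genes, a count too small for a comparison of levels.

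**Figure D1:**
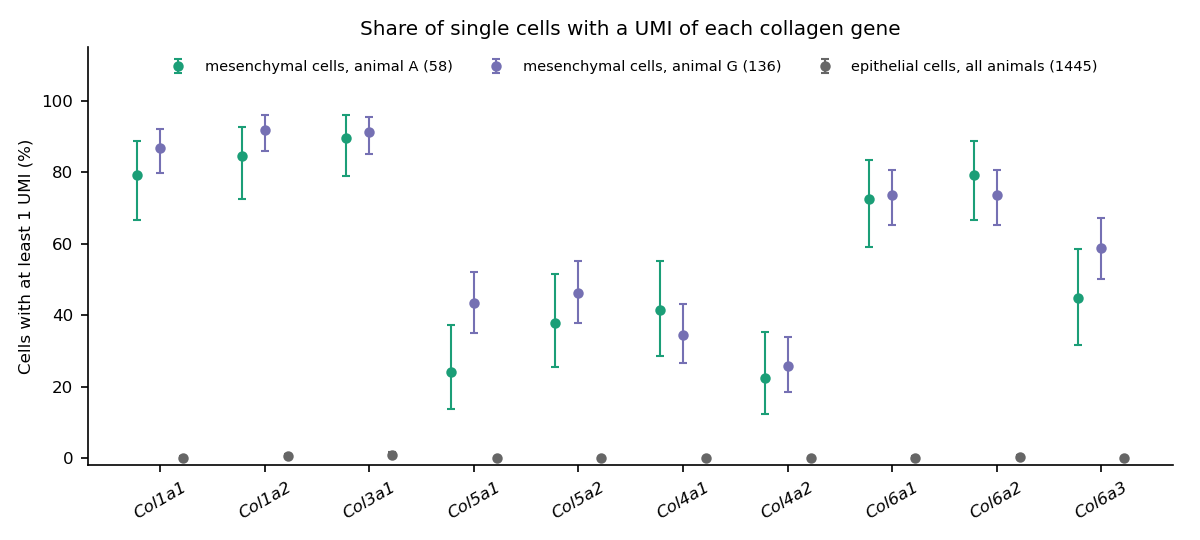
Share of cells with at least 1 UMI (vertical axis, percent) for each of the 10 genes, in mesenchymal cells of animals A and G and in epithelial cells of all animals, with exact 95% binomial intervals. The type I and III genes lie near 80% to 90% in both animals, the type IV genes between 22.4% and 41.4%, and the epithelial cells at or below 1.04% for every gene.

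In the pooled cells, the first chains of types I, V and VI had UMI numbers close to those of the second, and *Col4a1* and *Col6a3* were less even with their partners. *Col1a1* made up 48.3% of the UMIs of the type I pair (exact binomial interval 46.5% to 50.1%), with 45.4% in animal A and 48.9% in animal G. *Col4a1* made up 59.3% of the type IV pair (interval 52.7% to 65.7%), *Col5a1* 45.6% of the type V pair (interval 40.1% to 51.1%) and *Col6a1* 48.4% of its pair with *Col6a2* (interval 45.2% to 51.5%). *Col6a3* made up 36.1% of its sum with *Col6a1* (interval 32.7% to 39.6%). The share of *Col1a1* was 50.5% in crypt-type cells (interval 48.1% to 52.8%) and 45.4% in villus tip-type cells (interval 41.9% to 48.9%), classes that are defined next. Of the 168 cells with *Col1a1*, 92.9% also had *Col1a2*, against 71.0% of the cells without it, and deeper cells have more of both.

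The mesenchymal cells were divided by marker lists without any collagen into villus tip-type (75 cells), crypt-type (58), myofibroblast-type (34) and enteric mesothelial fibroblast-type (26) cells, and 6 cells had no class. Each list has 12 genes, such as *Grem1* and *Sfrp1* for crypt-type and *Igfbp6* and *Ly6c1* for villus tip-type cells. The class names follow these lists, and the position of the cells along the axis was not tested. In the stroma, 10 genes of the villus tip-type list were compared between villus tip and crypt in limma. Of these, 4 were above 0, with a median log2 difference of -0.199. At an unadjusted p under 0.05, 0 were higher at the tip and 1 was lower. Of 11 genes of the crypt-type list, 1 was above 0. The study chose these markers on the same cells, and its own marker sets for crypt telocytes and myofibroblasts include members of the collagens described here, so differences between classes are not independent evidence. A total of 11 cells lay at the edge of the rule, with the smallest UMI number or a lead of 1 UMI. The classes were unevenly spread, with 66 villus tip-type and 47 crypt-type cells in animal G and 8 and 9 in animal A, while 29 of the 34 myofibroblast-type cells were from animal A.

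The type I and III genes stood highest in crypt-type cells in both animals. *Col1a1* had 853 and 1205 UMIs per 100000 in crypt-type cells of animals A and G, and 424 and 276 in their villus tip-type cells. *Col1a2* had 882 and 1170 against 532 and 331. *Col3a1* had 1357 and 1311 against 764 and 586. In both animals the crypt-type value was above the villus tip-type value for all 3 genes.

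Sums of UMIs per animal and class were compared with class as the only term, although both classes came from animals A and G. The edgeR quasi-likelihood test covered 3326 genes, 2 sums against 2. Of these genes 21 were called at an adjusted p of 0.05, or 0.631%, and 14 were higher in crypt-type cells, or 0.421%. Of the 10 collagen genes 1 was called, *Col1a1*, which was higher in crypt-type cells by 1.70 on the log2 scale (SE 0.44, 95% interval 0.83 to 2.56, adjusted p = 0.0224 in edgeR), or 3.25-fold. Its log2 ratio was 1.01 in animal A and 2.12 in animal G. The call was lost in 3 alternatives. Without the 1 large plate of animal G, 16 cells of each class were left and the log2 difference was 0.95 (adjusted p = 0.781 in edgeR). With no filter on genes it was 1.71 (adjusted p = 0.739 in edgeR), and with 1 of the 3 mesenchymal markers 1.46 (adjusted p = 0.632 in edgeR), where the adjusted p over the alternatives ranged from 0.00143 to 0.781.

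The other type I and III genes differed in the same direction but were not called. *Col1a2* differed by 1.39 (interval 0.53 to 2.24, adjusted p = 0.166 in edgeR) and *Col3a1* by 1.05 (interval 0.19 to 1.91, adjusted p = 0.687 in edgeR). With the animal as a block, the adjusted p in edgeR was 0.0227 for *Col1a2* and 0.00143 for *Col1a1*. The median over the 10 genes was 0.49, against -0.08 over all genes tested, and 9 of the 10 were above 0. Simulated shifts of 2 on the log2 scale were recovered for 0 of 200 genes in this design, and shifts of 4 for 96 of 200. The 200 genes were drawn from all genes tested, down to 10 UMIs in total. Recovery was not counted apart for genes as high as type I and III, so these rates do not describe them.

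For types V, IV and VI the differences between these classes were smaller, and none was called. *Col5a1* differed by 0.54 (interval -0.72 to 1.81), *Col5a2* by 0.36 (interval -0.80 to 1.52), *Col4a1* by 0.53 (interval -0.78 to 1.83) and *Col4a2* by -0.08 (interval -1.65 to 1.48). *Col6a1* differed by 0.20 (interval -0.70 to 1.11) and *Col6a2* by 0.33 (interval -0.57 to 1.24). These intervals include 0 and reach past 1 on the log2 scale. *Col6a3* went opposite ways in the animals, with 29.1 UMIs per 100000 in crypt-type and 108 in villus tip-type cells of animal A, and 144 and 67.1 in animal G.

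The smaller classes are given as values. Myofibroblast-type cells had the highest levels of the short type VI chains, 334 UMIs per 100000 of *Col6a1* (interval 279 to 395) and 391 of *Col6a2* (interval 332 to 458), against 166 and 174 in crypt-type and 141 and 145 in villus tip-type cells. *Col6a3* did not follow, at 97.8 (interval 69.5 to 134) against 133 in crypt-type and 158 in enteric mesothelial fibroblast-type cells. *Col4a1* was at 85.3 (interval 59.0 to 119), which overlaps with 59.2 in crypt-type cells (interval 43.5 to 78.7). Of these cells 29 came from animal A. Within animal A, *Col6a1* was at 321 (interval 264 to 386) in them, against 155 in crypt-type (interval 88.7 to 252) and 166 in villus tip-type cells (interval 101 to 257), and *Col6a2* at 404 (interval 340 to 476), against 175 (interval 103 to 276) and 141 (interval 82.3 to 226). Most cells of animal A came from gates for cell pairs, and the part of the gate was not tested.

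Enteric mesothelial fibroblast-type cells had the lowest *Col3a1*, 140 UMIs per 100000 (interval 96.0 to 198), and it was 73.4 in animal A and 161 in animal G. In these cells *Col1a1* was at 241 and *Col1a2* at 237, so *Col3a1* made up 36.8% of its sum with *Col1a1* (interval 26.7% to 47.8%), against 67.5% in villus tip-type and 53.3% in crypt-type cells. *Col4a1* had 0 UMIs in these 26 cells, which allows up to 11.5% of cells with a UMI by the limit of 3 counts, at a median depth of 727 UMIs against 1624 in villus tip-type cells. It sets no limit on the cells that express the gene. *Col5a2*, at 87.7 (interval 53.6 to 135), and *Col6a3*, at 158 (interval 111 to 219), were not lower there than in the other classes. The depth of this class was the lowest of the 4, and its part in the detection of the low genes was not tested.

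**Figure D2:**
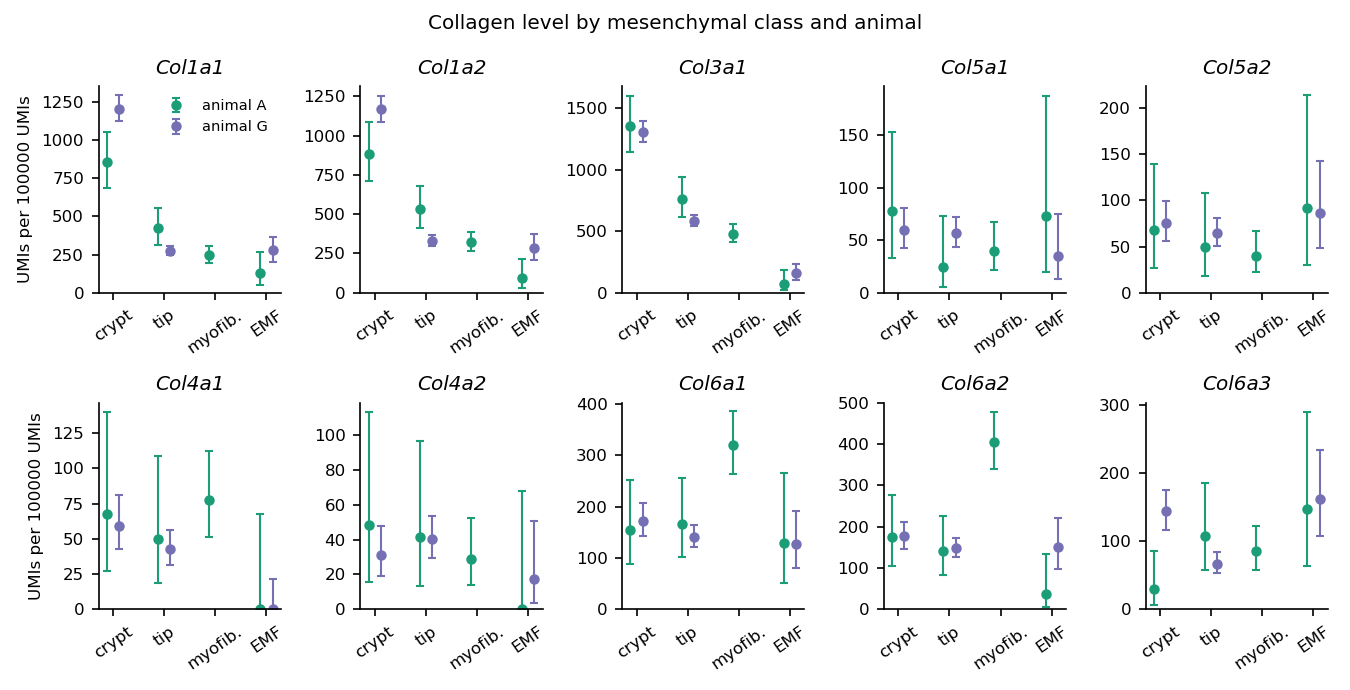
UMIs per 100000 UMIs (vertical axis, linear from 0) of each gene in crypt-type, villus tip-type, myofibroblast-type (myofib.) and enteric mesothelial fibroblast-type (EMF) cells of animals A and G, for classes with at least 5 cells in an animal, with exact Poisson intervals. The type I and III genes are highest in crypt-type cells of both animals, and the type VI pair *Col6a1* and *Col6a2* is highest in the myofibroblast-type cells of animal A.

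Genes that act with collagens were counted from lists in the same test. Among fibril-bound proteins 1 of 8 tested was called higher in crypt-type cells, *Fbln1* (fibulin 1, log2 2.01), and 1 lower, *Fn1* (fibronectin, log2 -2.38). Of 14 modification and folding genes, 7 procollagen cleavage and cross-linking genes, 8 other basement membrane genes, 7 proteases and inhibitors, 2 receptors and 7 other collagens, 0 were called in edgeR and 0 in DESeq2, with 1 basement membrane gene, 1 protease and 1 inhibitor at an unadjusted p under 0.05 in edgeR, as were 5.02% of all genes. The 14 modification and folding genes had a median of 0.71, 11 of them above 0. In the mesenchymal cells as a whole, *Sparc*, a collagen-binding glycoprotein, was at 722 UMIs per 100000, close to *Col3a1*, and *Serpinh1*, the collagen chaperone, at 108. *Col14a1*, a fibril-associated collagen, was the highest other collagen, at 111.

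The LCM values are TPM, which is scaled per transcript length, rescaled to parts per 1e6 (ppm) after genes of enterocytes were removed, and they can be compared between genes. A fall of a stromal gene in a zone can be fewer stromal cells or less RNA per cell, and in this bulk material these cannot be told apart. Sections of 1 mouse and zone differed much, with median gaps between 11 pairs of sections of 0.75 to 2.41 on the log2 scale for the 10 genes, against 1.24 over all genes. The largest gap was 7.67, for *Col4a2* between the villus tip sections of mouse 2. The sum of the 10 genes had a zone median of 283 ppm in crypt, 279 at the bottom of the villus, 221 at its center and 243 at its tip. The means were 269, 265, 411 and 227 ppm in the same order, so the center was lowest by the median and highest by the mean, which rested on mice 1 and 4.

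*Col1a1* had its lowest mean at the villus tip. Its level was 11.5, 63.2 and 43.1 ppm in the crypt of mice 1 to 3, and 14.7, 36.0, 35.2, 25.7 and 23.6 ppm at the villus bottom of mice 1 to 5. At the villus center it was 23.3, 28.0, 25.2, 46.3 and 2.64 ppm, and at the villus tip 5.49, 19.8, 18.6, 2.99 and 5.93 ppm. The tip was below the bottom in 5 of 5 mice and below the crypt in 3 of 3, although the ranges of the zones overlap. Means were 39.3 ± 26.1 ppm in crypt (SD, n = 3) and 27.0 ± 8.86, 25.1 ± 15.5 and 10.6 ± 7.98 ppm from bottom to tip (SD, n = 5 each).

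*Col1a2* did not follow this order, and was highest at the villus center. It was 31.2, 46.0 and 89.7 ppm in crypt and 53.7, 30.2, 55.1, 25.4 and 22.5 ppm at the villus bottom. At the center it was 96.7, 79.6, 98.7, 72.5 and 47.3 ppm, and at the tip 15.3, 19.7, 49.9, 6.11 and 33.6 ppm. The center was above both the bottom and the tip in 5 of 5 mice, and above the crypt in 3 of 3. The share of all genes with this order was not counted, so it may not be particular to collagens. For each of the bottom and the tip the exact sign-flip permutation test over 5 mice gave p = 0.0625, the smallest it can give, so this test cannot reach 0.05 with 5 mice, and 6 pairs of zones were compared for each of the 10 genes.

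*Col5a1* shared this shape at a lower level per length. It was 5.85, 9.32, 17.7, 9.51 and 9.34 ppm at the villus center, against 0.90, 4.92, 13.5, 0.88 and 3.96 ppm at the bottom and 0.74, 1.07, 9.58, 1.34 and 5.69 ppm at the tip. The center was above both in 5 of 5 mice (exact sign-flip permutation test, p = 0.0625 each, the smallest possible). In crypt it was 1.54, 17.4 and 10.7 ppm. *Col5a2*, the partner chain, had its highest mean at the villus bottom, 10.1 ± 6.44 ppm (SD, n = 5), against 4.86 ± 1.11 in crypt (SD, n = 3) and 4.07 ± 4.00 and 4.41 ± 2.90 at center and tip (SD, n = 5 each), and 3 of the 29 sections had it at 0.

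*Col3a1* had the largest values and the largest SD in ppm, 182 at the villus center. At the villus center it was 381 ppm in mouse 1 and 331 in mouse 4, and 31.2, 37.0 and 9.61 in mice 2, 3 and 5. The value of mouse 1 came from sections at 745 and 16.0 ppm. At the tip it was 8.50, 130, 83.6, 3.50 and 18.2 ppm, with sections of mouse 2 at 2.41 and 258. In crypt it was 29.2, 65.3 and 77.4 ppm and at the bottom 32.3, 38.9, 49.8, 150 and 17.6 ppm, so no zone stood apart.

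The villus center of mice 1 and 4 also held more RNA of smooth muscle markers than that of the other mice, while fibroblast markers did not set both apart. The sum of *Des*, *Cnn1* and *Actg2*, smooth muscle markers, was 3638 ppm in mouse 1 and 292 in mouse 4, against 3.22 to 7.63 ppm in mice 2, 3 and 5. The sum of *Pdgfra*, *Dcn*, *Lum* and *Thy1* was 1208 ppm in mouse 1 and 396 in mouse 4, and 37.2 to 776 ppm in the others. The sum of the 10 collagens was 787 and 735 ppm in mice 1 and 4, against 107 to 221 in the others. The part of smooth muscle cells and fibroblasts in the collagen values was not tested.

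Of the basement membrane genes, *Col4a1* had its highest means at the lower end of the axis, 41.8 ± 15.9 ppm in crypt (SD, n = 3) and 47.0 ± 23.5 at the bottom (SD, n = 5), against 23.6 ± 18.1 at the center and 31.2 ± 37.4 at the tip (SD, n = 5 each). By mouse it was 24.9, 44.0 and 56.4 ppm in crypt and 36.1, 23.4, 85.3, 50.3 and 39.6 at the bottom. At the tip it was 4.47, 10.3, 13.5, 32.1 and 95.5 ppm, so the tip mean rested on mouse 5, and the tip was below the bottom in 4 of 5 mice. *Col4a2* was 6.65 to 18.7 ppm in crypt, 3.56 to 30.1 at the bottom and 6.23 to 62.6 at the center. At the tip it was 101 ppm in mouse 2, from sections at 0 and 202, and 1.26 to 12.2 in the others. *Pecam1*, an endothelial marker, had zone means of 1632 to 2021 ppm. The other endothelial markers, *Cdh5*, *Kdr*, *Tie1* and *Emcn*, were far lower, with zone means of 4.62 to 27.9 ppm. *Vil1*, *Krt20* and *Cdh1*, epithelial genes removed before scaling, summed to 118 to 2246 TPM. Vessels and epithelium both lie on basement membranes, and their part in the type IV values was not tested.

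The beaded filament genes had no shared shape. *Col6a1* was 11.7, 16.0 and 30.9 ppm in crypt and 3.91 to 28.6 at the bottom. It reached 136 ppm in mouse 1 at the center and 127 in mouse 2 at the tip, with lowest values of 0.81 and 0.47 in the same zones. *Col6a2* was highest at the villus bottom, 10.3, 77.3, 25.3, 61.1 and 26.3 ppm, and above the center and the tip there in 4 of 5 mice each. *Col6a2* was 2.20, 1.65 and 46.2 ppm in crypt. *Col6a3* was 0.74 to 19.7 ppm in all but 2 of the 18 mouse and zone means, which were 157 ppm in mouse 4 at the center and 69.3 in mouse 5 at the tip.

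**Figure D3:**
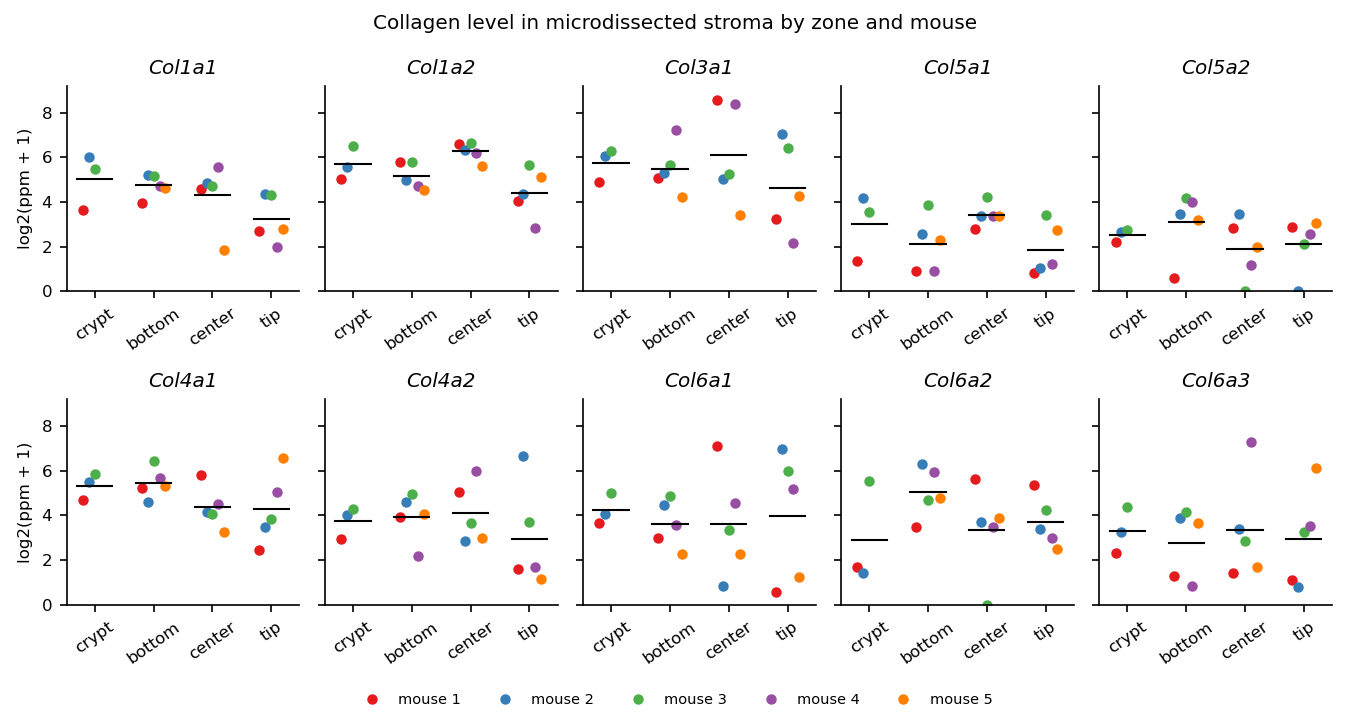
Level of each gene as log2(ppm + 1) (vertical axis) in crypt and villus bottom, center and tip, with 1 point per mouse and a black line at the mean of the log2 values. *Col1a1* is lower at the tip than at the bottom in all 5 mice, and the zones overlap for every gene. *Col1a2* and *Col5a1* are higher at the center than at the bottom and the tip in all 5. The share of all genes with these orders was not counted.

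The zones were then compared with limma on log2(ppm + 1) over 13535 genes with the mouse as a block, a scale that understates the change of low genes. Between villus tip and bottom 0 genes were called in limma at an adjusted p of 0.05, and 1057, or 7.81%, had an unadjusted p under 0.05, 765 of them lower at the tip, or 5.65%. Of the 10 collagens 0 passed, and 1 was lower at an unadjusted p under 0.05, *Col1a1*, by a log2 difference of -1.51 (95% interval -2.87 to -0.15, unadjusted p = 0.0312, adjusted p = 0.613 in limma). It was lower in 5 of 5 mice, and the exact sign-flip permutation test gave p = 0.0625, the smallest possible. The median over the 10 genes was -0.92, against -0.06 over all genes tested, with 2 of the 10 above 0. *Col6a2* differed by -1.35 (interval -3.59 to 0.89), *Col4a1* by -1.17 (interval -2.71 to 0.37) and *Col6a1* by 0.36 (interval -2.09 to 2.81).

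Between villus tip and crypt 0 genes passed in limma and 447, or 3.3%, had an unadjusted p under 0.05, and of the collagens 0 passed either threshold. *Col1a1* differed by -1.47 (interval -3.10 to 0.16), *Col4a1* by -1.30 (interval -3.15 to 0.55), *Col5a1* by -1.09 (interval -2.68 to 0.49) and *Col1a2* by -0.99 (interval -2.32 to 0.34). The median over the 10 was -0.86, against -0.03 over all genes tested. *Col6a2* and *Col6a1* were above 0, at 0.88 and 0.13, but the direction of *Col6a2* turned without mouse 1, to -0.31, and that of *Col6a1* turned under several settings. *Col4a2* differed by -0.35 on this scale although its mean was higher at the tip, 23.7 ± 43.5 against 13.6 ± 6.22 ppm, because of the single high mouse.

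Between the mean of the villus zones and crypt 0 genes passed in limma and 364, or 2.69%, had an unadjusted p under 0.05, again with 0 collagens at either threshold. The differences of the 10 ranged from -0.89 for *Col4a1* (interval -2.51 to 0.73) to 1.21 for *Col6a2* (interval -1.15 to 3.57), with a median of -0.24 against -0.08 over all genes tested. *Col3a1* differed by -0.03 (interval -2.28 to 2.22). The 3 comparisons share samples, so they are not separate evidence. Simulated shifts of 3 were recovered for 0 of 200 genes between tip and crypt and 5 of 200 between tip and bottom, and shifts of 6 for 172 and 190.

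**Figure D4:**
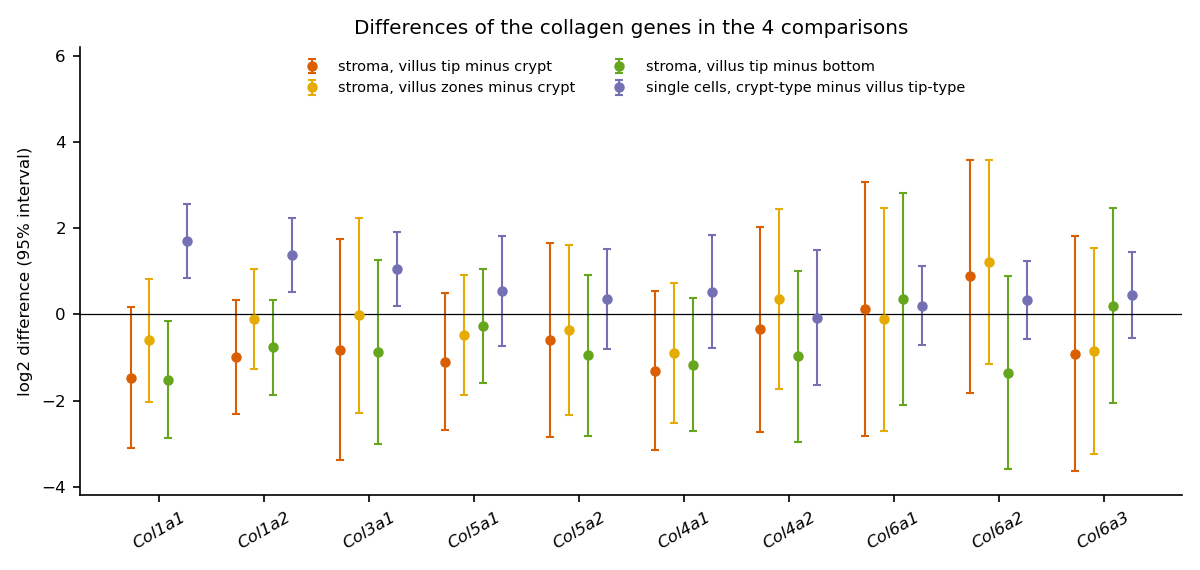
Log2 difference of each gene with its 95% interval (vertical axis) in the 3 comparisons of stroma (limma) and between crypt-type and villus tip-type cells (edgeR). The intervals lie off 0 for *Col1a1*, *Col1a2* and *Col3a1* in the single cells and for *Col1a1* between villus tip and bottom, and *Col1a1* of the single cells is the only gene that passed an adjusted p of 0.05.

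The related lists were counted in the stroma too, where 5.65% of all genes were lower at the tip than at the bottom at an unadjusted p under 0.05. Of the 16 other collagens tested, 0 passed in limma between tip and bottom and 2 were lower at an unadjusted p under 0.05, *Col15a1* (log2 -3.04), a chain linked to basement membranes, and *Col14a1* (log2 -1.72). Of 7 fibril-bound genes 2 were, *Bgn* (biglycan, log2 -3.19) and *Sparc* (log2 -1.70), and of 11 proteases and inhibitors 2 were, *Mmp9* (log2 -3.57) and *Mmp10* (log2 -2.77). Of 16 modification and folding genes, 7 cleavage and cross-linking genes, 13 other basement membrane genes and 6 receptors, 0 were. In the same comparison 2 of 4 immune markers were lower at an unadjusted p under 0.05, and the sum of the immune list had a median of 969 ppm at the bottom and 220 at the tip. The part of the immune cells in these values was not tested. Between tip and crypt, where 3.3% of all genes had an unadjusted p under 0.05, 0 genes of these lists passed in limma. At an unadjusted p under 0.05, *Col15a1* (log2 -2.99), *Bgn* (log2 -2.49), *Sparc* (log2 -2.12), *Lama2* (a laminin chain, log2 -2.48) and *Pcolce* (an enhancer of procollagen cleavage, log2 -3.60) were lower at the tip, and *Pcolce2*, its relative, was higher (log2 1.74). Between the villus zones and crypt *Lama2* (log2 -2.44) and the protease *Fap* (log2 -1.41) were lower at that threshold on the log2 scale. The mean level of *Fap* was low and not lower in every villus zone. It was 4.25 ppm in crypt, 6.71 at the bottom, 2.52 at the center and 9.26 at the tip.

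In the stroma the proportions of chains of 1 molecule varied widely. Over the 18 mouse and zone means the share of *Col1a1* in the type I pair had a median of 29.8% and ran from 5.30% to 57.9%, on the scale of ppm per length. That of *Col4a1* in the type IV pair ran from 9.23% to 98.7%, with a median of 71.9%, and that of *Col6a1* in its pair with *Col6a2* from 1.17% to 100%, with a median of 46.6%. Only the crypt had a narrow range of the type IV share, 74.2% to 78.9% in its 3 mice. The cell values sum many cells on a scale of transcript ends, so the shares of cells and stroma are given side by side without a test.

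Correlations across the 18 means describe the same pattern, in points that share mice, scaling and sections. Over the 45 pairs of genes, Pearson's r of log2(ppm + 1) ran from -0.37 to 0.72 with a median of 0.19, and 10 pairs were above 0.5. *Col1a1* went with *Col3a1* (r = 0.72) and *Col1a2* (r = 0.55), and *Col1a2* with *Col5a1* (r = 0.70). *Col4a1* and *Col4a2*, which share their start, had r = 0.01, and the 3 pairs among the type VI genes ran from -0.14 to 0.13. *Col4a2* was closer to *Col3a1* (r = 0.69) and *Col6a1* (r = 0.66).

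**Figure D5:**
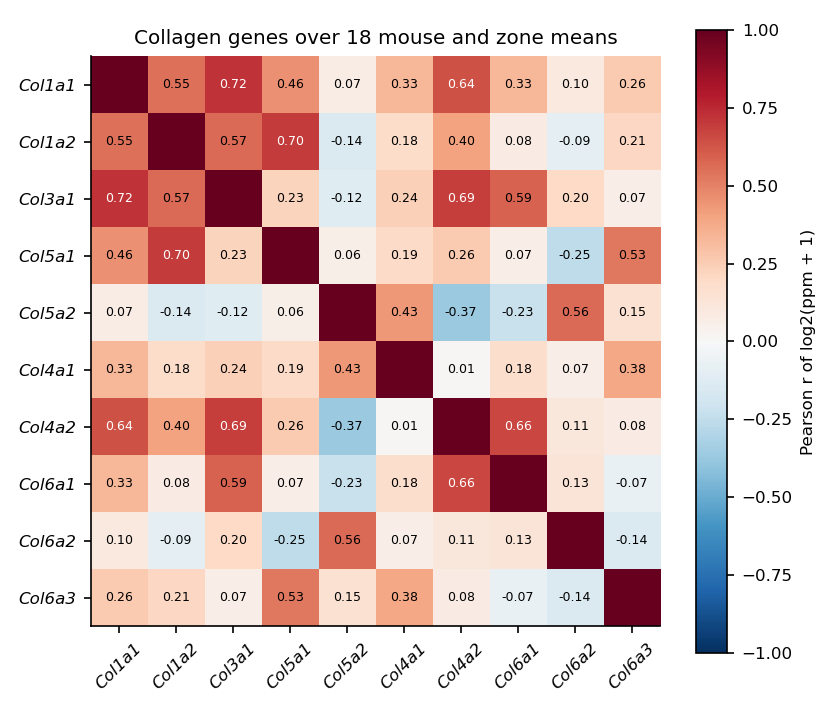
Pearson's r of log2(ppm + 1) between the 10 genes over 18 mouse and zone means (color scale from -1 to 1, each value printed). The type I and III genes and *Col4a2* have r of 0.40 to 0.72 with each other, and the type IV pair is at 0.01.

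Outside the collagens, the genes most like the 10 as a group were found by the correlation of each of 13504 genes with the mean z score of the 10 over the 18 means. They were *Spon2* (r = 0.87), *Sparc* (0.79), *Anxa6* (0.77), *Axl* (0.75), *Rrp8* (0.75), *Tns3* (0.74), *Lum* (0.74) and *Hspb1* (0.74). *Sparc* had a mean of 135 ppm in crypt, 81.8 at the bottom, 112 at the center and 34.5 at the tip, and *Lum* 28.0, 9.08, 49.8 and 12.8. The sum of the 10 collagens went with the smooth muscle list (r = 0.60), the immune list (r = 0.51) and the fibroblast list (r = 0.42). With the endothelial list r was -0.05, on 18 points for each list. The endothelial sum was nearly all *Pecam1*, with a crypt mean of 1942 of 1975 ppm. That r therefore does not describe the other endothelial markers.

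In the isolated epithelium the collagens were near the limit of detection. Each gene had 0 to 13 UMIs per sample, of 748458 to 4210158 UMIs in a sample, and 0 of the 10 reached the filter of 1e-05 of the UMIs in at least 2 samples, so none entered the edgeR fit, in which 32 of 8986 genes (0.356%) were called. Over the 4 control and the 4 DT samples the counts were 4 and 7 for *Col1a1*, 18 and 20 for *Col1a2* and 8 and 20 for *Col3a1*. They were 3 and 4 for *Col5a1*, 3 and 2 for *Col5a2*, 4 and 8 for *Col4a1* and 3 and 7 for *Col4a2*, and 19 and 7 for *Col6a1*, 12 and 10 for *Col6a2* and 7 and 15 for *Col6a3*. With no filter on low counts, edgeR called 635 of 15502 genes, or 4.1%, and of the 10 collagens 0 were called and 0 had an unadjusted p under 0.05. The lowest adjusted p-values in that fit were those of *Col6a1* (log2 -1.48, adjusted p = 0.402 in edgeR) and *Col3a1* (log2 1.29, adjusted p = 0.480 in edgeR). With so few UMIs this does not show that the groups were alike.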

How the data were processed

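The 10 genes and all gene lists were chosen with earlier results of these data known. The LCM values are TPM per gene, which the authors deposited after pseudoalignment with Kallisto (coding transcripts, GRCm38) and Sleuth. TPM keeps no depth. For the single cells (MARS-seq) and the epithelium (mcSCRB-seq) the authors deposited UMI counts made with zUMIs on GRCm38, without normalization, before the filters on cells. The empty control wells were not identified, so no background was subtracted. Cells from doublet gates stayed in, and doublets were not searched for. A plate with 352 wells matched no sample and was not used.

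From the LCM values, 378 genes high in the control epithelium were removed (4.97% to 44.7% of the TPM of a section, no collagen among them). This list was rebuilt here from the epithelium of the ablation experiment, since the study used another data set for it. Each section was divided by the sum of genes below 1% of it, and sections were averaged per mouse and zone. Genes with a zone mean above 5 ppm were tested on log2(ppm + 1) with limma 3.58.1, with zone and mouse as terms. The same mice gave several zones, so the mouse was kept as a block, and the correlation of deviations of the same mouse between zones was -0.07 to 0.47.

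A cell joined the class whose list had the most UMIs, at least 2. Sums per animal and class with at least 5 cells, and genes with at least 10 UMIs, were tested with edgeR 4.0.16 (TMM, quasi-likelihood test). Class was the only term, and DESeq2 1.42.0 and a block for the animal were alternatives. The epithelium was fitted with edgeR with treatment and batch, which the headers of the study's supplement give (replicates 1 and 2 in batch a, 3 and 4 in batch b). Correlations of samples with the same replicate number were 0.42 to 0.66 over 4 pairs, and -0.16 and -0.06 within the batches. A fit with the number as a block was an alternative. P-values were adjusted by Benjamini-Hochberg over all genes tested, with a threshold of 0.05, and each fit was tested on simulated data. The genes named are the 10 collagens, the 8 genes most correlated with them in the stroma, and members of the lists that passed a threshold or stood highest. Alternatives covered the filters, the values added before the logarithm (0.1 and 10 ppm), scaling, the cell rules and leaving out each animal or replicate. Leaving out the largest plate was chosen after seeing the data. Figures were drawn with matplotlib 3.10.9.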

Additional observations from a re-analysis of the deposited data

Results flagged for a closer look

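Of 50 groups of 4 or 5 samples, 11 passed Dixon's limit for the gap of 1 sample to the rest. Chance passes it in about 1 of 20 groups where values are normally distributed. The ppm entered without a logarithm and with large gaps between sections, so the number of stroma groups cannot be set against that rate. In the stroma these were *Col3a1* at the villus bottom of mouse 4 (150 ppm), *Col4a2* at the villus tip of mouse 2 (101 ppm), *Col6a1* and *Col6a2* at the villus center of mouse 1 (136 and 49.3 ppm), and *Col6a3* at the villus center of mouse 4 (157 ppm) and at the villus tip of mouse 5 (69.3 ppm). The other mice of these groups stood at most at 49.8, 12.2, 22.4, 13.7, 9.54 and 10.4 ppm, in the same order. In the epithelium the UMI numbers were small and tied, so that this chance rate does not hold, and the gap can be 1 UMI. These were *Col5a1* with 0 UMIs in control replicate 2, beside 1 in each other control, and 4 in DT replicate 1, *Col4a1* with 4 in control replicate 3, *Col4a2* with 3 in control replicate 2, and *Col6a3* with 13 in DT replicate 1.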

How the results depend on the processing

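The LCM comparisons called 0 genes in limma in most settings. With no filter on low values, 1 gene was called between tip and crypt and 2 between the villus zones and crypt, and leaving out each mouse gave 0 to 4 between tip and bottom, the latter without mouse 4. The 21 genes called between the classes became 0 with no filter, 7 with 1 of the 3 mesenchymal markers, 10 without the largest plate and 31 with the animal as a block. *Col1a1* was then not called in the first 3 of these (log2 1.71, 1.46 and 0.95, adjusted p = 0.739, 0.632 and 0.781 in edgeR, over a range of 0.00143 to 0.781). Leaving out an animal left no residual degrees of freedom, so it gave values with no test. Without doublet gates, or with all 3 markers, only animal G had both classes and no test was run. The 32 genes called in the epithelium became 1 without the batch term, 159 in DESeq2, 635 with no filter and 3 with the replicate block, and 0 to 23 when a replicate was left out. The collagen share of mesenchymal UMIs was 1.88% with 1 marker and 2.05% without the largest plate.

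Directions that turned are given as log2 differences, and none of them had been called. Between tip and crypt, *Col4a2* was 0.092 with 10 ppm added, and *Col6a1* was -0.25 without the replicate block, -0.25 with 0.1 ppm added and -0.046 with the mean of log2 over sections. Leaving out each mouse gave -0.60 to 0.94 for *Col6a1* and -0.31 to 2.38 for *Col6a2*. Between tip and bottom the same gave -1.52 to 0.17 for *Col3a1*, -0.44 to 0.043 for *Col5a1*, -0.18 to 1.05 for *Col6a1* and -0.42 to 1.03 for *Col6a3*, and between the villus zones and crypt -0.40 to 0.065 for *Col1a2*, -0.39 to 0.22 for *Col3a1* and -0.86 to 0.22 for *Col5a1*. Between the villus zones and crypt, 10 ppm added gave 0.044 for *Col3a1*, 0.023 for *Col5a2* and 0.27 for *Col6a1*, and *Col4a2* was -0.081 without the replicate block and -0.19 with the mean of log2 over sections. Between the classes, with 1 marker *Col6a1* was -0.11 and *Col6a2* -0.13, without the largest plate *Col4a2* was 0.95, *Col6a1* -0.21 and *Col6a3* -0.94, and leaving out each animal gave -0.36 to 0.22 for *Col4a2*, -0.10 to 0.29 for *Col6a1* and -1.89 to 1.10 for *Col6a3*. The cause was not tested.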
